A study of Mus musculus with 30 samples.

Results

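The endothelial identity genes, which mark the inner lining of blood vessels, were followed in mouse skeletal muscle after 64 weeks of repeated phase shifts. They are 10 genes chosen by symbol, namely Pecam1, Cdh5, Kdr, Flt1, Eng, Emcn, Tie1, Tek, Vwf and Cldn5, from the 56951 gene symbols of the deposited tables. Each had a single row, and 10 of 10 passed the filter on low values that left 12030 genes for testing. RNA came from the gastrocnemius, taken with the plantaris, of male wild-type C57BL/6J mice that were young adults at the start and lived singly with a running wheel. All mice first had a fixed light-dark cycle and then constant darkness. The 14 mice of the LD group then stayed on an unshifted light-dark cycle, and the light-dark cycle of the 16 mice of the ADV group was advanced by 8 h every 4 days. No group carried a transgene or drug treatment, and each library was 1 mouse.

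Endothelial cells form the wall of the capillaries that run along every muscle fiber, and they control the exchange of oxygen, lipids and leukocytes with the fiber. They are recognised by junction proteins that hold neighbouring cells together, by receptor tyrosine kinases that read vascular growth factors and angiopoietins, by receptors of the TGF-β and BMP family, and by stored proteins of blood clotting. Most of the members are shared by arteries, capillaries and veins, while Vwf is known to be more abundant in larger vessels and is also made by megakaryocytes.

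The genes were measured from 18875468.5 to 28512674 reads on exons per library, of which the 10 members together took 0.0405 to 0.0543% in LD and 0.0432 to 0.0630% in ADV. The tissue label held, since 8 of 8 muscle fiber genes were measured at a summed level of 64384 to 89522 FPKM (reads scaled to exon length and library total, a level per length). ADV mouse 34 stood apart, with 92.7% of its reads on exons against 91.5 ± 0.37% (mean ± SD, n = 16) in its group and 91.2 ± 0.12% (n = 14) in LD. It had the lowest ADV level of Kdr, Flt1, Tie1, Tek and Vwf. ADV mouse 24 had the highest ADV level of Pecam1, Cdh5, Flt1, Eng and Tie1, and LD mouse 28 the lowest LD level of Pecam1, Cdh5, Flt1 and Emcn.

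Of the 10 members, 3 were higher in the ADV group, namely Eng, Emcn and Pecam1, and none was called lower. Eng rose by 0.38 on the log2 scale (SE 0.083), Emcn by 0.27 (SE 0.065) and Pecam1 by 0.16 (SE 0.049), with FDR values of 0.00526, 0.00924 and 0.0331 (edgeR quasi-likelihood test, adjusted by Benjamini-Hochberg over every gene tested). All 3 calls were lost when the share of reads on exons or a score of clock genes entered the fit as a covariate (FDR 0.0689 to 0.468, edgeR). Both measures differed between the groups, so their parts and that of the group cannot be told apart. Over all genes, the calls fell from 1306 to 45 with the share of reads on exons and to 0 with the score. With the number in each mouse's label as a block, in the 28 libraries with shared numbers, edgeR called 1 member, Eng, and 491 genes. The same 28 libraries without the block gave 2 members and 613 genes. Of all 12030 genes, 10.9% were called in either direction, 5.74% as higher and 5.12% as lower in ADV, and the members' count is given beside these shares as a description. The exact Wilcoxon rank-sum test on FPKM called the same 3 members (FDR 0.00826 for Eng, 0.0183 for Emcn and 0.0262 for Pecam1) and 9.68% of all genes. With a fold change over 1.3 asked for as well, 1 member was called, Eng, and 2.09% of all genes. This call sits at the limit, and no member met both conditions in 15 of the 30 fits that left out a library, namely LD mouse 23, 27, 28, 30, 31, 32, 33 or 35 or ADV mouse 24, 25, 28, 29, 32, 33 or 35. The median log2 fold change of the members was 0.15, with 8 of 10 above 0, and that of all genes tested was 0.00, with 51.0% above 0. Summed over the 10 genes, the level was 84.5 to 115 FPKM in LD (median 99.7) and 98.8 to 135 FPKM in ADV (median 111), so the groups overlapped. Without ADV mouse 34 the same count of 3 members was called, and over the 30 fits that left out a library the FDR of Eng was 0.00263 to 0.0110 and that of Emcn 0.00675 to 0.0162. In bulk tissue, more endothelial cells and more RNA of these genes per cell cannot be told apart.

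**Figure D1:**
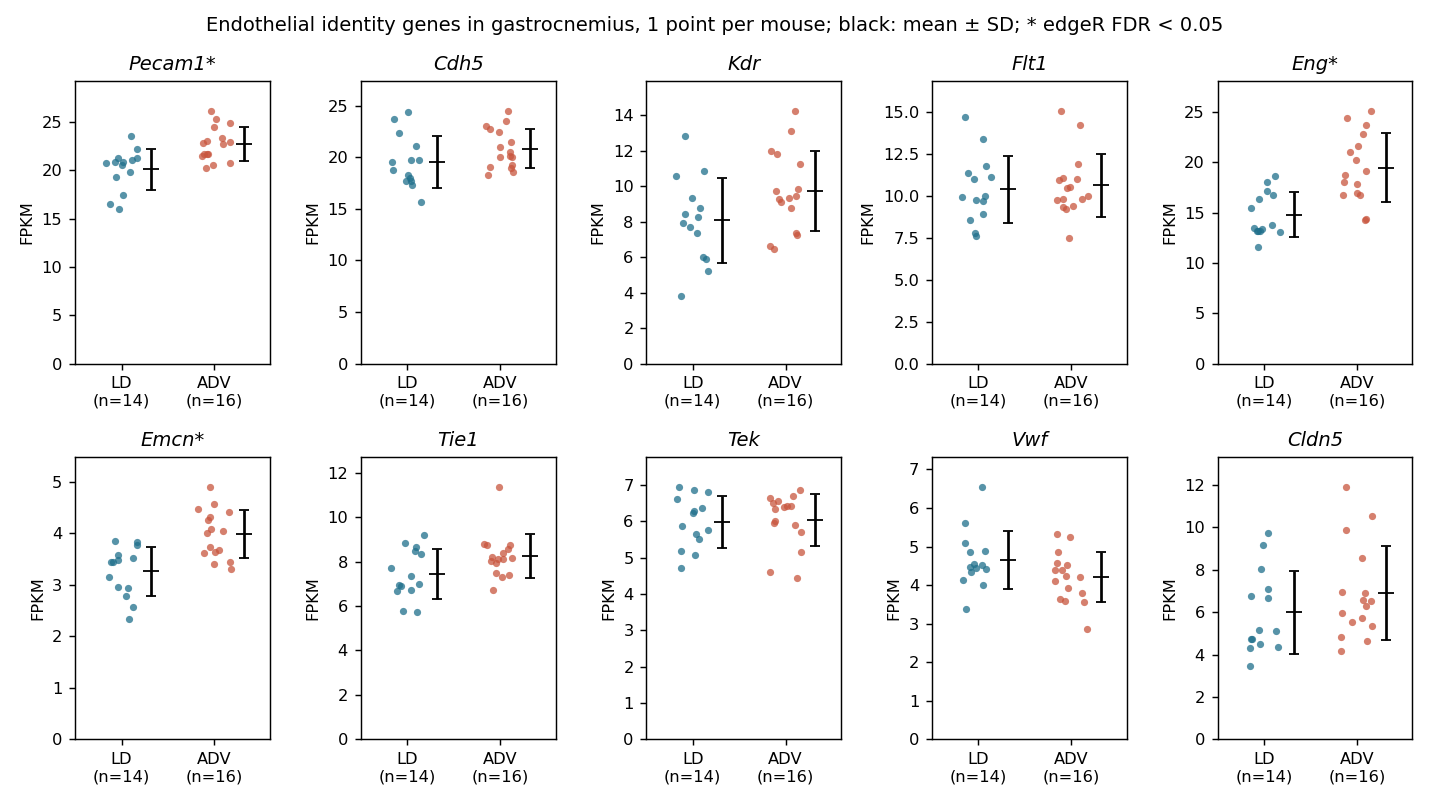
FPKM of each of the 10 endothelial identity genes (vertical axis, starting at 0) in the LD and ADV groups, 1 point per mouse, with the mean and SD in black beside the points and an asterisk where the edgeR FDR was under 0.05. The groups overlapped in every panel. For Eng and Emcn 9 of 16 ADV mice lay above the highest LD mouse.

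Eng encodes endoglin, a co-receptor that binds BMP and TGF-β ligands together with the kinase ALK1. It lies on chromosome 2 at 32536607 to 32572670 (GRCm39, plus strand). Its level was 11.6, 13.6 and 18.6 FPKM (lowest, median and highest mouse) in LD and 14.2, 18.9 and 25.1 FPKM in ADV. All 16 ADV mice were above the LD median, 9 were above the highest LD mouse, and 8 LD mice were below the lowest ADV mouse. The means were 14.8 ± 2.20 FPKM (SD, n = 14) and 19.5 ± 3.39 FPKM (n = 16), a fitted fold of 1.302 (95% interval 1.16 to 1.46). Over 50 bases, 1.43% of its exons, Eng overlaps Fpgs on the other strand, and Fpgs itself had a log2 fold change of 0.08 (SE 0.076, FDR 0.498, edgeR).

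Emcn encodes endomucin, a sialomucin on the surface of capillary and venous endothelium. It lies on chromosome 3 at 137046828 to 137137946 (plus strand). It was the least abundant member, at 2.35, 3.45 and 3.86 FPKM (lowest, median and highest mouse) in LD and 3.31, 4.03 and 4.90 FPKM in ADV. As for Eng, 9 ADV mice exceeded every LD mouse, and 14 of 16 exceeded the LD median. The means were 3.26 ± 0.479 and 3.99 ± 0.468 FPKM, and the fitted fold was 1.21 (95% interval 1.10 to 1.33).

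The promoters of these genes are shown because Eng and Emcn rose, and those of Kdr and Tek because they were the pair whose levels followed each other most closely in LD mice. RefSeq promoters (300 bases around the start of the gene, GRCm38.p6, a build other than that of the counts) were held for 7 of the 10 members, and Pecam1, Cdh5 and Vwf had no entry. ETS factors, a family known for its role in endothelial gene expression, bind sites built on GGAA. The letters CAGGAA, searched on both strands, were present in the promoters of 4 of these 7 genes, namely Eng, Emcn, Tie1 and Tek, and in 30.4% of 27025 promoters of the table. The E-box CACGTG bound by clock proteins was present in 0 of 7 windows and in 7.24% of all promoters. Sequences are written 5′ to 3′ in the direction of the gene. Matches to CAGGAA are in capitals (here TTCCTG, as every match was on the other strand). The shorter GGAA, on either strand, also occurs outside the capitals in the Eng, Emcn and Kdr windows, and was not searched or marked. In Eng the first letter of the match lay at base 6 after the start, in Emcn at -173 and -67, and in Tek at -89 and -59. No match to CAGGAA lay in the Kdr window.
Eng (chr2:32646345-32646644, plus strand): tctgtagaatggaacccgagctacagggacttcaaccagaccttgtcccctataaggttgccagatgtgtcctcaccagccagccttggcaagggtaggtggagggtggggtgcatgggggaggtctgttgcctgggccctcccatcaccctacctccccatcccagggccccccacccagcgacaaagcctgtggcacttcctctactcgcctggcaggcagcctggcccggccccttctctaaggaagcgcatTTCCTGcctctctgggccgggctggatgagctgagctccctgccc
Emcn (chr3:137340828-137341127, plus strand): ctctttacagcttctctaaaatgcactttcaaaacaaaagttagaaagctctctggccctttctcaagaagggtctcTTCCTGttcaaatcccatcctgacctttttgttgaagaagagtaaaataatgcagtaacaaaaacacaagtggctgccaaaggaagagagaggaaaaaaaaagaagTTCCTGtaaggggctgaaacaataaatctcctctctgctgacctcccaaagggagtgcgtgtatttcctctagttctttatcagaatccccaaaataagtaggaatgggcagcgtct
Kdr (chr5:75978406-75978705, minus strand): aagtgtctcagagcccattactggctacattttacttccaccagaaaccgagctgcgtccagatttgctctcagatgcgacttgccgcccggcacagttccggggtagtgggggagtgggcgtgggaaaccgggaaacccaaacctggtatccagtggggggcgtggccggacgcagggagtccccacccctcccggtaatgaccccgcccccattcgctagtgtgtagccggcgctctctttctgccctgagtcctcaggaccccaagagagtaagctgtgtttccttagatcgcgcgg
Tek (chr4:94739039-94739338, plus strand): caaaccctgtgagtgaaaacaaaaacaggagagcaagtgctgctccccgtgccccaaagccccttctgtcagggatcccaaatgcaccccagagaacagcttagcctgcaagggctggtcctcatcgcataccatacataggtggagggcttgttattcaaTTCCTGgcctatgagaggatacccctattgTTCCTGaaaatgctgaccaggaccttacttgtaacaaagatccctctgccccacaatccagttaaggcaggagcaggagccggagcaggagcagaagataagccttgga
The 4 windows differed in base composition. The Emcn window had a GC content of 41.0%, Tek 52.0%, Kdr 60.7% and Eng 63.3%, around a median of 52.7% over all promoters.

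Of the junction genes, Pecam1 rose, and Cdh5 and Cldn5 did not pass the test. Pecam1 (chromosome 11, 106545044 to 106606220, minus strand) encodes CD31, an adhesion protein of endothelial cells, platelets and some leukocytes. It was the most abundant member, at 16.0, 20.8 and 23.5 FPKM (lowest, median and highest mouse) in LD and 20.2, 22.7 and 26.1 FPKM in ADV. Its means were 20.1 ± 2.13 and 22.7 ± 1.75 FPKM, a fold of 1.119 (95% interval 1.04 to 1.20). No ADV mouse was below 20.2 FPKM, and 5 of 14 LD mice were. The call was near the threshold and was lost when LD mouse 28 or 34 or ADV mouse 24 or 33 was left out (FDR 0.0509 to 0.0600, edgeR).

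Cdh5 (chromosome 8, 104828257 to 104871143, plus strand) encodes VE-cadherin, the adhesion protein of endothelial adherens junctions. It spanned 15.7 to 24.4 FPKM in LD (median 19.1) and 18.2 to 24.4 FPKM in ADV (median 20.3), and both groups reached the same upper end. The log2 fold change was 0.08 (95% interval -0.03 to 0.19, FDR 0.352, edgeR). Cldn5 (chromosome 16, 18595597 to 18597012, plus strand, 1 exon) encodes claudin-5, the main claudin of endothelial tight junctions. It spanned 3.44 to 9.72 FPKM in LD (median 5.13) and 4.16 to 11.9 FPKM in ADV (median 6.39). Its log2 fold change of 0.19 had the widest interval of the members, -0.14 to 0.52 (FDR 0.443, edgeR). That value was 0.11 without ADV mouse 36, 0.07 with the GC content trend removed and 0.66 with the clock gene score in the fit.

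The VEGF receptors did not pass the test in either direction. Kdr (chromosome 5, 76093487 to 76139118, minus strand) encodes VEGFR2, the main signaling receptor for VEGF-A. It was measured at 3.83, 8.13 and 12.8 FPKM (lowest, median and highest mouse) in LD and 6.49, 9.41 and 14.2 FPKM in ADV. Its log2 fold change was 0.25 (95% interval -0.01 to 0.52, FDR 0.184, edgeR), a larger point value than that of Pecam1 with a wider spread among mice. Flt1 (chromosome 5, 147498414 to 147662821, minus strand) encodes VEGFR1, which binds VEGF-A, VEGF-B and PlGF and also occurs as a soluble form. It was measured at 7.63 to 14.7 FPKM in LD (median 9.98) and 7.53 to 15.1 FPKM in ADV (median 10.2), with a log2 fold change of 0.01 (95% interval -0.17 to 0.20, FDR 0.933). The counts are on the exons of 1 canonical transcript of Flt1, so its soluble form was not measured separately. Within mice, the ratio of Kdr to Flt1 was 0.808 ± 0.302 in LD and 0.927 ± 0.217 in ADV.

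The Tie receptors, which read the angiopoietins, were also not called. Tie1 (chromosome 4, 118328388 to 118347258, minus strand), a receptor that acts together with Tek, was at 5.75, 7.17 and 9.22 FPKM (lowest, median and highest mouse) in LD and 6.71, 8.14 and 11.4 FPKM in ADV. Although 15 of 16 ADV mice were above its LD median, its log2 fold change of 0.13 (SE 0.066) had an FDR of 0.166 (edgeR). Tek (chromosome 4, 94627537 to 94763176, plus strand), the receptor that binds angiopoietins, was at 4.71 to 6.94 FPKM in LD (median 6.04) and 4.45 to 6.85 FPKM in ADV (median 6.36). Its log2 fold change was -0.00 (95% interval -0.12 to 0.12, FDR 0.966). The ratio of Tie1 to Tek was 1.24 ± 0.115 in LD and 1.39 ± 0.223 in ADV.

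Vwf had the lowest log2 fold change of the 10. It encodes von Willebrand factor, which captures platelets at sites of vessel injury, and lies on chromosome 6 at 125529911 to 125663642 (plus strand). It was measured at 3.38, 4.49 and 6.55 FPKM (lowest, median and highest mouse) in LD and 2.87, 4.23 and 5.33 FPKM in ADV. The log2 fold change of -0.17 (SE 0.080) did not pass the test (FDR 0.155, edgeR), and 5 of 16 ADV mice were above the LD median. Relative to Pecam1 of the same mouse, Vwf was 0.235 ± 0.0497 in LD and 0.186 ± 0.0293 in ADV, a description of values of which Pecam1 itself had moved.

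**Figure D2:**
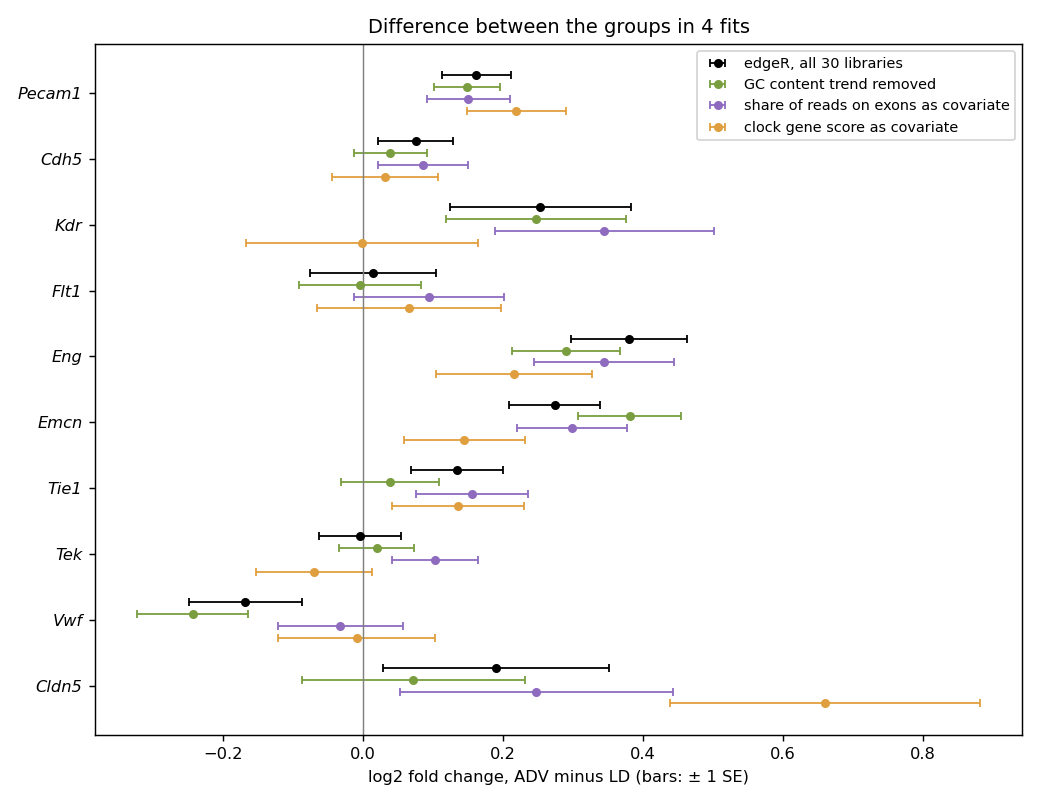
Log2 fold change of each member (horizontal axis, ADV minus LD), with bars of 1 SE, in 4 fits, namely edgeR on all 30 libraries, with the GC content trend of each library removed, and with either the share of reads on exons or the clock gene score as a covariate. With the clock gene score Eng moved from 0.38 to 0.22, Emcn from 0.27 to 0.14, Kdr from 0.25 to -0.00 and Cldn5 from 0.19 to 0.66.

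On the scale of levels per length, the order in LD was Pecam1, Cdh5, Eng, Flt1, Kdr, Tie1, Tek, Cldn5, Vwf and Emcn, and in ADV Cldn5 stood before Tek. The LD means of Tek and Cldn5 were nearly equal, at 5.984 and 5.982 FPKM. The ranges of all neighbours in this order overlapped in both groups. Within mice, Cdh5 was above Eng in 14 of 14 LD mice and in 9 of 16 ADV mice. Tie1 was above Tek in 14 of 14 LD mice, and in ADV the lowest ratio of Tie1 to Tek was 1.08. Tek was above Vwf in 16 of 16 ADV mice, a pair that was not adjacent in the LD order.

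The members differed widely in how much they varied among mice of a group. The coefficient of variation of FPKM was 32.6% in LD and 32.2% in ADV for Cldn5, and 29.7% and 23.3% for Kdr. Pecam1 varied by 10.6% and 7.68%, and Cdh5 by 12.9% and 9.19%. The median over all genes tested was 12.4% in LD and 14.3% in ADV, so Cldn5 and Kdr varied more than most genes and Pecam1 less than the median gene.

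Whether the members rose and fell together was asked over the mice of each group, for 45 pairs on TMM-normalized log2 CPM (counts scaled to library size). In LD the median Pearson r was 0.232 and 28 of 45 pairs were positive, with values from -0.552 to 0.796. Kdr and Tek followed each other most closely (r = 0.796, permutation p = 0.0006, adjusted over the pairs 0.0265, Spearman rho = 0.802, p = 0.00089, adjusted 0.0200). Cdh5 and Eng came next (r = 0.773, permutation p = 0.00118, adjusted 0.0265, rho = 0.807, p = 0.00074, adjusted 0.0200). Tie1 and Tek were the third pair past the threshold by r (0.752, permutation p = 0.00255, adjusted 0.0382), and missed it by rho (0.727, p = 0.00424, adjusted 0.0636). Without the 2 mice farthest from the median of the first gene, r was 0.831, 0.666 and 0.682 for these 3 pairs.

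The median r with the other members in LD was 0.540 for Eng, 0.531 for Cdh5 and 0.528 for Tek, and lowest for Vwf (-0.235) and Cldn5 (-0.252). Of 12020 other genes, 6.61%, 7.84% and 6.54% had an r with Eng, Cdh5 and Tek at or above these medians, and 68.9% and 72.9% with Vwf and Cldn5. Cldn5 had a positive r of 0.455 with Pecam1 (permutation p = 0.102, adjusted 0.199, rho = 0.424, p = 0.132, adjusted 0.296). Vwf and Cldn5 had r = 0.594 (permutation p = 0.0218, adjusted 0.113, rho = 0.688, p = 0.00796, adjusted 0.0895). The lowest value, between Kdr and Vwf, was -0.552 (permutation p = 0.0431, adjusted 0.145, rho = -0.288, p = 0.317, adjusted 0.475) and rested on 2 mice, since r was 0.259 without them. No negative pair passed the threshold.

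In ADV the median r was 0.248, 42 of 45 pairs were positive, and the values ran from -0.337 to 0.669. None of the 45 pairs passed after adjustment by permutation test of r or of rho, and 3 by r and 4 by rho had an unadjusted p under 0.05. The highest was between Flt1 and Tie1 (r = 0.669, permutation p = 0.00547, adjusted 0.196, rho = 0.641, p = 0.00858, adjusted 0.214, r without 2 mice 0.623). Pecam1 and Eng, both called higher in ADV, had r = 0.631 (permutation p = 0.00968, adjusted 0.196, rho = 0.641, p = 0.00952, adjusted 0.214, without 2 mice 0.631). Kdr and Tek had r = 0.365 (permutation p = 0.163, adjusted 0.533, rho = 0.141, p = 0.601, adjusted 0.909), and Cdh5 and Eng 0.197 (p = 0.461, adjusted 0.696, rho = 0.138, p = 0.611, adjusted 0.909). The median r with the other members in ADV was 0.197 for Eng, 0.331 for Cdh5 and 0.128 for Tek. Of the other genes, 25.9%, 11.1% and 39.9% had an r with Eng, Cdh5 and Tek at or above these medians. For Vwf (0.311) and Cldn5 (0.171) the shares were 15.5% and 25.1%. Whether these correlations differ between LD and ADV was not tested.

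**Figure D3:**
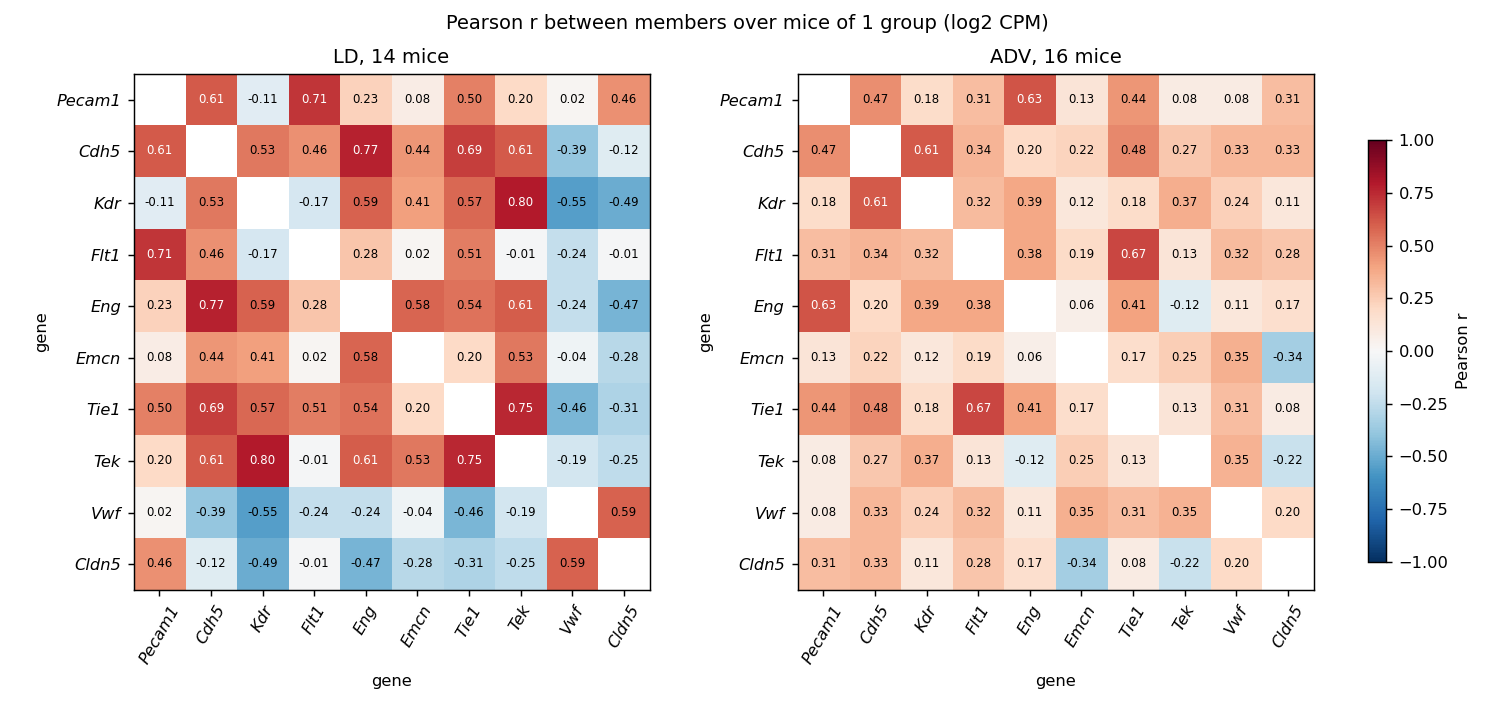
Pearson r between the TMM-normalized log2 CPM of each pair of members over the 14 LD mice (left) and the 16 ADV mice (right), on a colour scale from -1 (blue) to 1 (red), both axes naming genes. In LD 28 of 45 pairs are above 0, and the highest is Kdr with Tek (0.80), and in ADV 42 of 45 pairs are above 0.

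The groups also differed in clock genes, and the hour at which each mouse was sampled was not used here. A clock gene score, the mean standardized level of 5 genes high with Bmal1 minus that of 8 genes low with it, was -1.07 ± 1.24 in LD and 0.938 ± 0.795 in ADV, and 3 of 5 and 7 of 8 of these genes passed the test in those directions. Over the 14 LD mice, Cldn5 had r = -0.734 with the score (permutation p = 0.00296, adjusted over 20 relations 0.0592, rho = -0.618, p = 0.0213, adjusted 0.185), and -0.534 without the 2 mice farthest from the median. Kdr had r = 0.635 (permutation p = 0.0143, adjusted 0.143, rho = 0.732, p = 0.00413, adjusted 0.0826), and 0.745 without 2 mice. None of the 20 relations passed after adjustment. Over the 16 ADV mice the values of r lay between -0.322 for Cdh5 and 0.224 for Emcn. When this score entered the fit, edgeR called 0 members (2 of 10 had an unadjusted p under 0.05) and 0 genes in all (1580 had an unadjusted p under 0.05). The log2 fold changes were then 0.22 for Eng (FDR 0.400), 0.14 for Emcn (FDR 0.468) and 0.22 for Pecam1 (FDR 0.216). Because score and group move together, their parts in the result cannot be told apart.

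**Figure D4:**
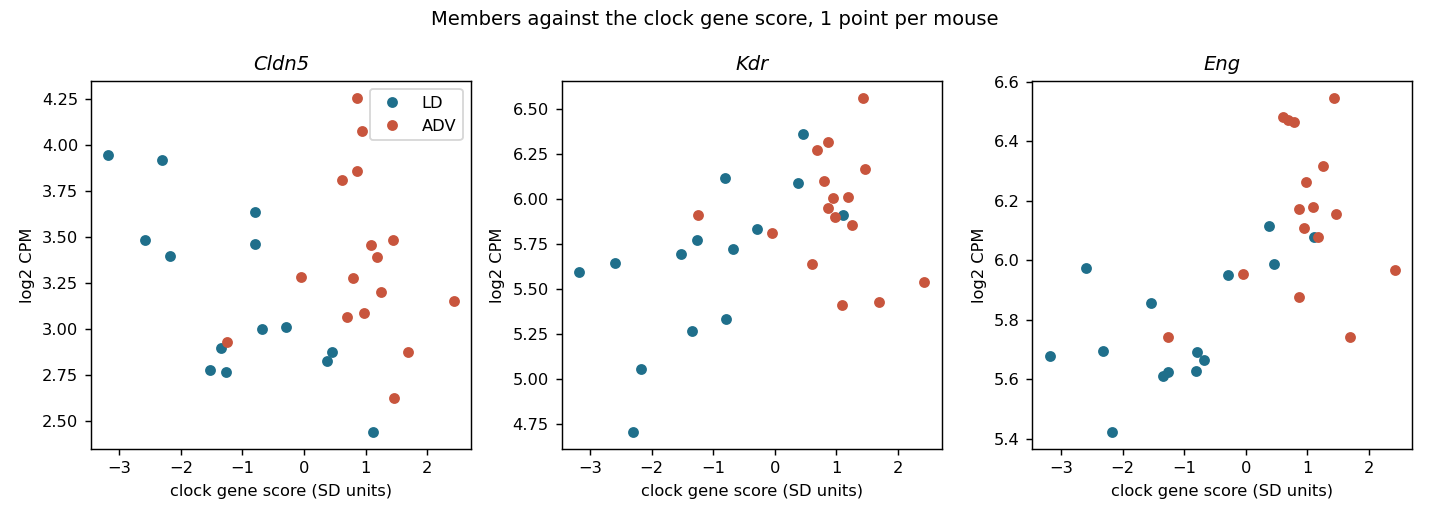
TMM-normalized log2 CPM of Cldn5, Kdr and Eng (vertical axes) against the clock gene score in SD units (horizontal axes), 1 point per mouse, LD in blue and ADV in red. Most ADV mice lie at the right, and among LD mice r was -0.734 for Cldn5 and 0.635 for Kdr.

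Base composition moved with the groups as well. The slope of a library's log2 deviation on the GC content of the gene was -0.0658 ± 0.0635 per 10 percentage points in LD and 0.0575 ± 0.115 in ADV, highest in ADV mouse 34 (0.323). Eng has a GC content of 57.5% and Emcn of 41.6%, on either side of the median of 50.4% over genes tested. With the trend removed, the log2 fold change of Eng was 0.29 (FDR 0.0276, edgeR), that of Emcn 0.38 (FDR 0.00384) and that of Pecam1 0.15 (FDR 0.0603), so 2 members were called. Over all genes, 600 were called in that fit, against 1306 in the main fit. With the share of reads on exons as a covariate, 0 members were called by edgeR (4 of 10 had an unadjusted p under 0.05), with log2 fold changes of 0.34 for Eng (FDR 0.0963), 0.30 for Emcn (FDR 0.0689) and 0.15 for Pecam1 (FDR 0.222). That fit called 45 genes in all, and 1794 had an unadjusted p under 0.05. The share was 91.2 ± 0.12% in LD and 91.5 ± 0.37% in ADV. As with the clock gene score, its part and that of the group cannot be told apart.

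The genes that act with the members were read from lists. Counts in these and the later lists are descriptions. Of all 12030 genes tested, edgeR called 10.9%, and 3615 had an unadjusted p under 0.05. Of 8 tested ligands of their receptors, 1 passed the test, Vegfb, a ligand of VEGFR1, at 65.5 ± 9.89 FPKM in LD and 76.7 ± 10.5 FPKM in ADV (log2 fold change 0.21, SE 0.069, FDR 0.0428, edgeR). Vegfa, the ligand of VEGFR2 and the most abundant of the list, was at 86.7 ± 17.8 and 104 ± 21.6 FPKM (FDR 0.112), and Tgfb1 at 1.99 ± 0.379 and 2.48 ± 0.573 FPKM (FDR 0.0636). Bmp10, a ligand of endoglin and ALK1 made in the heart, had no read in any library, and Gdf2 and Angpt4 were below the filter. By the exact Wilcoxon test on FPKM 0 of the 8 ligands passed after adjustment.

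Of 8 partner receptors, 1 passed, Acvrl1, which encodes ALK1, the kinase partner of endoglin. It was at 4.25 ± 0.722 FPKM in LD and 5.16 ± 0.913 FPKM in ADV (log2 fold change 0.26, SE 0.086, FDR 0.0437, edgeR). Nrp1, a VEGF co-receptor, and Tgfbr2 were at 9.09 ± 1.96 and 9.003 ± 0.869 FPKM in LD and at 9.50 ± 2.14 and 9.24 ± 1.80 FPKM in ADV, with FDR values of 0.816 and 0.910. Tgfbr1 was at 5.41 ± 0.429 and 4.90 ± 0.818 FPKM (FDR 0.140). The median log2 fold change of the 8 was 0.01.

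Of 11 tested junction partners, such as Ctnnb1 (β-catenin) and Jup (plakoglobin), 0 passed with edgeR and 0 by the Wilcoxon test, with 1 at an unadjusted p under 0.05. Ctnnb1 was at 56.1 ± 2.62 and 56.5 ± 3.17 FPKM. These genes are also expressed by other cells of muscle.

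Of 19 tested endothelial transcription factors, 1 passed, Gata2, a zinc finger factor of endothelium and blood progenitors, at 1.95 ± 0.241 FPKM in LD and 2.38 ± 0.416 FPKM in ADV (log2 fold change 0.27, SE 0.076, FDR 0.0220, edgeR). Sox18, a factor of vessel and lymphatic development, was at 5.81 ± 1.68 and 7.55 ± 1.70 FPKM (log2 fold change 0.35, SE 0.12, FDR 0.0591). The most abundant, Epas1, was at 31.8 ± 4.18 and 34.7 ± 5.07 FPKM (FDR 0.279).

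Other endothelial genes mostly had small positive differences. Of 23 further surface and signaling genes 20 were above 0 with a median of 0.11, and 0 passed with edgeR, 3 having an unadjusted p under 0.05. The Wilcoxon test called 1, Ushbp1, at 6.59 ± 0.987 and 7.59 ± 0.826 FPKM (edgeR FDR 0.0522). The most abundant were Aqp1, the water channel of muscle capillaries, at 112 ± 27.5 and 116 ± 21.6 FPKM (FDR 0.890), and Cav1 at 37.2 ± 6.95 and 42.9 ± 10.6 FPKM (FDR 0.209).

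By vessel type, 2 of 10 capillary genes were called higher, beside 5.74% of all genes tested. Counts in lists this short do not rank the vessel types. Of 9 artery, 6 vein and 5 lymphatic genes 0 passed with edgeR or with the Wilcoxon test, and 2, 2 and 1 had an unadjusted p under 0.05 with edgeR. The capillary genes that rose were Rgcc, from 39.5 ± 10.6 to 57.5 ± 14.8 FPKM (log2 fold change 0.52, SE 0.13, FDR 0.0114, edgeR), and Fabp4, a fatty acid binding protein of capillaries and adipocytes, from 172 ± 29.1 to 225 ± 61.1 FPKM (log2 fold change 0.37, SE 0.10, FDR 0.0228). All 10 capillary genes were above 0, with a median of 0.16, and Lpl, also made by muscle fibers and fat, was at 177 ± 64.7 and 204 ± 50.5 FPKM (FDR 0.415). The medians were 0.13 for artery, 0.09 for vein and -0.07 for lymphatic genes.

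**Figure D5:**
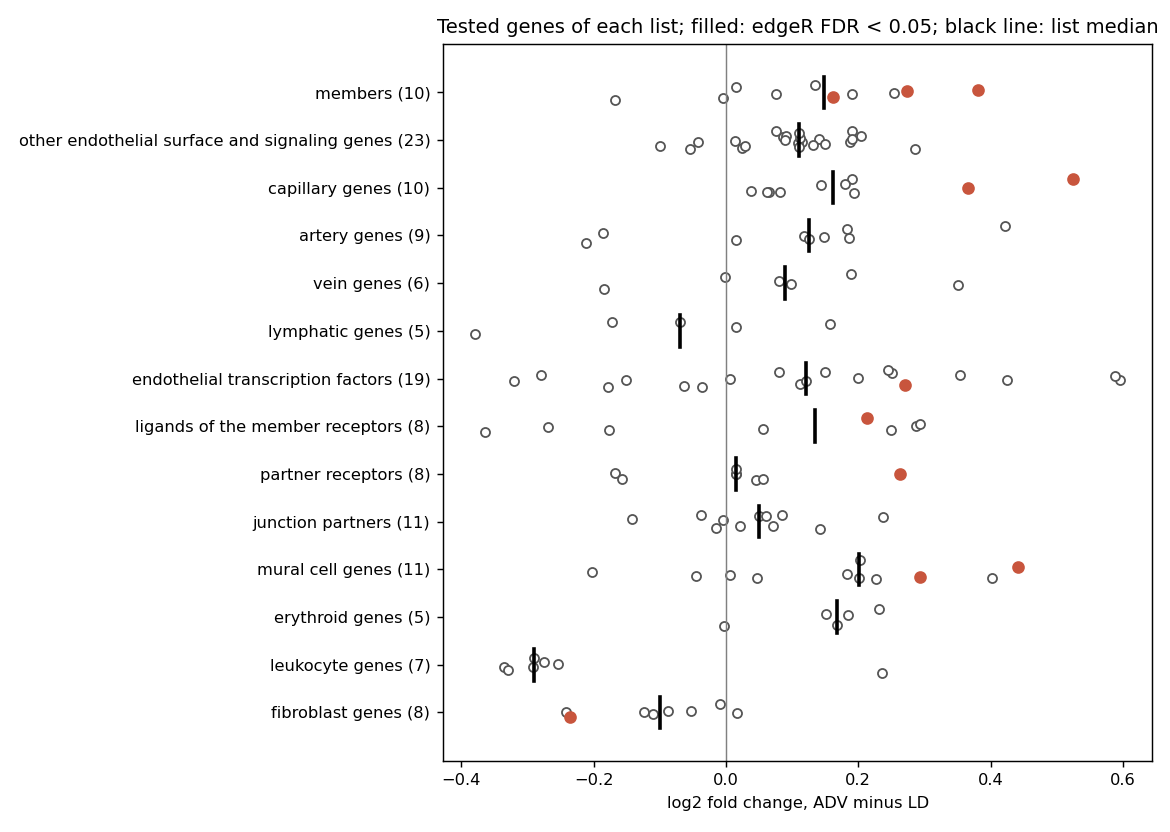
Log2 fold change (horizontal axis, ADV minus LD) of each tested gene of the members and of lists of endothelial, mural, blood and fibroblast genes (rows, number tested in brackets), filled where the edgeR FDR was under 0.05, with a black line at the median of the list. The members' median was 0.15, that of capillary genes 0.16 and that of mural cell genes 0.20, and leukocyte genes had a median of -0.29.

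Markers of other cells moved beside the members, and their part in the result was not tested. Of 11 mural cell genes (pericytes and smooth muscle around vessels) 9 were above 0 and 2 passed, Higd1b (2.29 ± 0.717 to 3.15 ± 0.553 FPKM, FDR 0.0267, edgeR) and Tagln (12.7 ± 2.05 to 15.7 ± 2.69 FPKM, FDR 0.0328). The pericyte gene Rgs5, the most abundant of them, was at 61.0 ± 7.67 and 59.7 ± 5.86 FPKM (FDR 0.627). Abcc9 was at 44.1 ± 3.07 and 38.7 ± 6.05 FPKM (FDR 0.0528), and the Wilcoxon test called it lower in ADV (FDR 0.0219) beside Higd1b and Tagln. With edgeR 6 of the 11 had an unadjusted p under 0.05. Their summed level was 136 to 186 FPKM in LD and 139 to 201 FPKM in ADV.

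Among the blood cell genes none was called by edgeR or by the Wilcoxon test. Of 5 erythroid genes 4 were above 0, at a summed 70.1 to 136 FPKM in LD and 85.3 to 146 FPKM in ADV, with 2 at an unadjusted p under 0.05. Of 7 leukocyte genes 6 were below 0, at a summed 50.1 to 125 FPKM in LD and 42.3 to 91.5 FPKM in ADV, with 2 at an unadjusted p under 0.05. Of 6 platelet genes 1 was tested, Pf4, also a macrophage gene, at 10.1 ± 1.88 and 10.3 ± 2.30 FPKM, and the defining Itga2b, Gp9, Gp1ba, Gp1bb and Ppbp were below the filter.

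Of 8 fibroblast genes 7 were below 0 and 1 was called lower, Pdgfra, from 6.399 ± 0.517 to 5.50 ± 0.845 FPKM (FDR 0.0198, edgeR), at a summed 304 to 426 FPKM in LD and 266 to 451 FPKM in ADV. Schwann cell genes were above 0 in 6 of 6, at a summed 27.5 to 50.005 FPKM in LD and 29.2 to 85.7 FPKM in ADV. Adipocyte genes were above 0 in 5 of 5, at a summed 28.3 to 169 FPKM in LD and 19.2 to 286 FPKM in ADV. In the Schwann cell and adipocyte lists and among 8 muscle fiber genes 0 passed with edgeR or the Wilcoxon test, and 4, 3 and 2 genes had an unadjusted p under 0.05.

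The genes whose levels were most like those of the members, by the median Pearson r to the 10 over 30 libraries after subtracting the group means, were Notch3 (0.516), Podxl (0.501), Mlxipl (0.482), Niban1 (0.480) and Pdlim1 (0.473). Over 12020 other genes the median of this measure was 0.01 and the 95th percentile was 0.282. The lowest r to a single member was -0.392 for Podxl, -0.302 for Pdlim1, -0.080 for Niban1, -0.028 for Mlxipl and -0.011 for Notch3. Notch3 is a receptor of mural cells, at 3.12 ± 0.560 FPKM in LD and 3.63 ± 0.595 FPKM in ADV (FDR 0.112, edgeR), and Podxl encodes podocalyxin, a sialomucin of endothelium, at 10.9 ± 2.98 and 12.1 ± 2.43 FPKM (FDR 0.470). Pdlim1 was at 14.04 ± 4.53 and 19.6 ± 5.83 FPKM (FDR 0.0535).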

How the data were processed

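Gastrocnemius RNA of 14 LD and 16 ADV mice, grouped by their labels, was used. Reads were trimmed (Trimmomatic), aligned to GRCm39 (STAR 2.7.10a) and filtered on mapping quality by the authors, who then counted exons of UCSC known canonical transcripts (HOMER 4.11). The deposited estimated counts are not normalized and hold 0.5 per mate, so that 14.8% were not whole and were rounded here. The authors also deposited FPKM, the count per exon length and library total. Whether counting used strand is not given in the sources used here, so overlaps with antisense genes (Gm64067 over 2.16% of the exons of Cdh5, Gm70435 over 5.81% of those of Tie1) could not be separated.

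Of 57186 rows the longest with a mean over 20 reads was kept per symbol, and genes whose means exceeded 20 reads and 0.5 FPKM entered the test, by edgeR 4.0.16 (quasi-likelihood test, TMM normalization, R 4.3.3). A call was an FDR under 0.05 over 12030 genes. Standard errors of edgeR were back-calculated from the log2 fold change and the F statistic of the test. Intervals of 95% used these with a t quantile and are approximate. Correlations had two-sided permutation p-values from 100000 draws on log2 CPM with a prior count of 2 (scipy 1.17.1). Alternatives were DESeq2 1.42.0, limma 3.58.1 on log2(FPKM + 0.1) and log2(FPKM + 1), the exact two-sided Wilcoxon test on FPKM, other scalings, filters and covariates, and leaving out libraries. Reads on exons numbered 19015401 to 28512674 in LD and 18875468.5 to 25699603.5 in ADV, and the members had means of 223 to 1965 reads. On simulated counts with 200 of 12030 genes changed between LD and ADV, edgeR called 184, of which 179 were changed. The smallest simulated fold was 1.3. Recovery at the smaller fitted folds of Emcn (1.21) and Pecam1 (1.12) was therefore not simulated.

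The members and lists were chosen with earlier results of these data known. Genes were named from the members, in each list the 2 most abundant and the 2 with the smallest p, the 5 most like the members, and genes overlapping a member. Not every gene under this rule is reported here. The relations to the clock gene score were chosen after values were seen. Mice were housed singly and kept in light-shielded boxes, and how many shared a box is not given in the sources used here. Tests between the groups judged differences against the variation between these mice. The label numbers have no stated meaning, and the main fit did not pair mice by them. Promoters are from RefSeq. No other tissue or young mice were analysed here.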

Additional observations from a re-analysis of the deposited data

How the results depend on the processing

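Between LD and ADV, edgeR called 1306 genes and 3 members. DESeq2, its size factors, library size alone, limma on FPKM, the Wilcoxon test, a mean over 100 reads and counts summed over rows left 3 members called. The count of genes was 627 with no filter on low values, 600 with the GC content trend removed, 613 in the 28 libraries with shared numbers, 251 with a fold change over 1.3, 45 with the exon share as a covariate and 0 with the clock gene score, and that of members was 2, 2, 2, 1, 0 and 0. Leaving out 1 library gave 838 (without LD mouse 28) to 1542 genes and 2 to 3 members. The call of Eng held in 12 of 14 alternatives other than leaving out a library, that of Emcn in 11 and that of Pecam1 in 8. Except where stated, the cause was not tested.

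The label number as a replicate block left 491 genes and 1 member, Eng. The labels give these numbers no stated meaning. Deviations of same-numbered mice had r from -0.261 to 0.431 (median 0.011), and 6 of 14 values were over 0.1. Of the 14 LD mice, 3 correlated best with their own number. These values do not settle whether same-numbered mice belong together.

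Members near 0 changed sign. The log2 fold change of Tek, -0.00, was 0.0055 with library size alone, 0.0101 and 0.0090 with limma on log2(FPKM + 0.1) and log2(FPKM + 1), 0.0114 by the ratio of mean FPKM beside the Wilcoxon test, 0.0130 with the block, 0.0129 in the 28 libraries without it, 0.0195 with the GC content trend removed and 0.102 with the exon share, and -0.0237 to 0.0193 when leaving out libraries. Flt1, 0.01, was -0.0120 with the block, -0.0198 in the 28 libraries, -0.0037 with the GC content trend removed and -0.0227 to 0.0608 when leaving out libraries. Kdr, at 0.25 in the main fit and so not near 0, was -0.0011 with the clock gene score. The median r within LD was 0.145 to 0.340 and within ADV 0.185 to 0.291 when leaving out a mouse, and other units or rank correlation moved either by less than its jackknife error. Counting error alone gives a coefficient of variation of 2.26% (Cdh5) to 6.69% (Cldn5), and a difference below it was not detectable in a single mouse.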
